A study of Mus musculus with 5 samples.

Results

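Esrrg, Ptprd, Esrra, Ppargc1a and Ppargc1b are 5 of the 30406 genes that the gene lists of all libraries of this mouse salivary gland study share, and they were found there by Ensembl identifier. Single cells of 5 libraries were sequenced on droplets, 1 library per group, so that no test between groups was possible and every interval given covers counting error only. Control, photon and proton are 7-day organoids grown from submandibular gland cells of 4 pooled C57BL/6 mice aged 8 to 12 weeks, the latter pair irradiated on day 5 with 7 Gy, and fresh tissue is the dissociated gland of C57BL/6 mice of 8 to 12 weeks, not irradiated. The fifth library, untreated organoids collected on day 11, came from 4 other C57BL/6 animals, whose label gives no age, and was run separately with another version of the counting software. The methods name female mice of 8 to 12 weeks for the study as a whole, and cells negative for propidium iodide were sorted for all libraries per the labels.

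Esrrg and Esrra encode ERRγ and ERRα, orphan nuclear receptors that bind DNA at the same short response element and switch on genes of the citric acid cycle, fatty acid oxidation and the respiratory chain. They have no known natural ligand that drives them and depend on the coactivators PGC-1α (Ppargc1a) and PGC-1β (Ppargc1b), which are induced in tissues of high energy demand. Ptprd belongs to none of these, being a receptor tyrosine phosphatase of the LAR family that is best known from synapse formation. In the salivary gland the striated and granular ducts are the segments rich in mitochondria, where saliva is modified by ion transport.

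The genes were chosen from the excess of Esrrg and Ptprd UMIs in the day 11 library over the control library of day 7, so that this contrast describes the choice and supports nothing. Long introns also entered the choice, because counting of intronic reads raises the total of a long gene. In the GRCm39 annotation Esrrg spans chr1:187340988-187947082 on the plus strand, which is 606 kb with 6.21 kb of exon. Ptprd spans chr4:75859475-78130198 on the minus strand and is the 2nd longest of 21186 protein-coding genes. Ppargc1a lies at chr5:51611592-51725068 on the minus strand and is 113 kb long, with Ppargc1b near it in length at 103 kb. Esrra, at chr19:6888338-6899336 on the minus strand, is 11.0 kb long and overlaps Trmt112 on the opposite strand.

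Oligo-dT primers, which catch the poly(A) tail, can also prime on runs of A inside an intron, and the genes differed in how many such runs they hold. Runs of at least 15 A on the transcribed strand numbered 66 in the introns of Ptprd, 11 in those of Esrrg, 4 in those of Ppargc1a and 3 in those of Ppargc1b. Esrra held none, as did the median protein-coding gene. The longest intronic run of each of the 3 genes that differed most between the libraries is given below on the transcribed strand of GRCm39 with 20 bases on each side, from chr1:187418424-187418488 for Esrrg (plus strand), chr4:76629110-76629191 for Ptprd (minus strand) and chr5:51722160-51722227 for Ppargc1a (minus strand). Capitals mark the run of A, which is 25 bases long in Esrrg, 42 in Ptprd and 28 in Ppargc1a. Whether reads came from these runs was not tested.
Esrrg: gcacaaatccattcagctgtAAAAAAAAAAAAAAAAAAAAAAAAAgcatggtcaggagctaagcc
Ptprd: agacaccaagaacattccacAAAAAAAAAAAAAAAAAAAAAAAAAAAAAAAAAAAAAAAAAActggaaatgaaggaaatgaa
Ppargc1a: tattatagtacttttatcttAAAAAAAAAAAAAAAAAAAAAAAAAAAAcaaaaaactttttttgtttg

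Barcodes with at least 200 genes and at most 5% mitochondrial UMIs were kept after doublet removal, which left 6494 in control, 15610 in photon, 15325 in proton, 9484 in day 11 and 1402 in fresh tissue, with 5879000 to 31936230 UMIs per library. The day 11 library stood apart in the nuclear RNA Malat1, which made up at least 1% of the UMIs in 98.8% of its barcodes but in 8.80 to 15.9% of the 7-day organoid barcodes. Any pair of libraries shared 3 to 65 barcode sequences, at most 0.71% of either. In the organoid libraries luminal duct markers summed to 2903 to 3959 CPM (UMIs of a gene scaled to a common library total) and basal duct markers to 5722 to 12046 CPM, while immune markers summed to 14.7 CPM in control, 26.3 CPM in photon, 23.9 CPM in proton and 3.73 CPM in day 11, with the pan-leukocyte gene Ptprc at 0 in all 4. Fresh tissue held pro-acinar markers at 42418 CPM and immune markers at 1043 CPM, so that its epithelium is not that of the organoids. In sums over a library, more cells expressing a gene and more RNA per cell cannot be told apart.

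Esrrg, the receptor with the more restricted expression of the pair, was all but undetected on day 7 and abundant on day 11. It gave 2 UMIs in control, 2 in photon, 6 in proton, 13349 in day 11 and 39 in fresh tissue. As levels these were 0.13 CPM (95% interval 0.015 to 0.46), 0.079 CPM (0.0096 to 0.29), 0.24 CPM (0.089 to 0.53), 418 CPM (411 to 425) and 6.63 CPM (4.72 to 9.07). Day 11 was thus far above the other 4 libraries, tissue lay between, and the intervals of the 7-day libraries overlapped. A UMI of Esrrg was present in 56.5% of day 11 barcodes, 2.64% of tissue barcodes and 0.013 to 0.039% of 7-day barcodes.

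Esrra, the broadly expressed receptor, was at one level in every library by comparison. It gave 214 UMIs in control (13.5 CPM, 11.8 to 15.5), 426 in photon (16.9 CPM, 15.3 to 18.5), 453 in proton (18.3 CPM, 16.7 to 20.1), 436 in day 11 (13.7 CPM, 12.4 to 15) and 58 in fresh tissue (9.87 CPM, 7.49 to 12.8). Proton and photon headed the order with overlapping intervals, day 11 and control overlapped likewise, and tissue was lowest with an interval that reached both.

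The coactivator Ppargc1a had the order of Esrrg. It gave 4 UMIs in control (0.25 CPM, 0.069 to 0.65), 13 in photon (0.51 CPM, 0.27 to 0.88), 19 in proton (0.77 CPM, 0.46 to 1.2), 3334 in day 11 (104.4 CPM, 100.9 to 108.0) and 60 in fresh tissue (10.2 CPM, 7.79 to 13.1). Day 11 again led, tissue followed, and the intervals of neighbouring 7-day libraries overlapped. Its UMIs were present in 15.3% of day 11 barcodes and 2.78% of tissue barcodes.

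Ppargc1b, the second coactivator, was low throughout. It gave 23 UMIs in control (1.45 CPM, 0.92 to 2.18), 45 in photon (1.78 CPM, 1.30 to 2.38), 17 in proton (0.69 CPM, 0.40 to 1.10), 272 in day 11 (8.52 CPM, 7.53 to 9.59) and 6 in fresh tissue (1.02 CPM, 0.37 to 2.22). Day 11 was above every other library, proton was below photon, and the remaining intervals overlapped.

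Ptprd, the phosphatase, had 6 UMIs in control (0.38 CPM, 0.14 to 0.83), 6 in photon (0.24 CPM, 0.087 to 0.52), 11 in proton (0.45 CPM, 0.22 to 0.80), 9458 in day 11 (296 CPM, 290 to 302) and 5 in fresh tissue (0.85 CPM, 0.28 to 1.98). Unlike Esrrg and Ppargc1a it was no higher in kept tissue barcodes than in the 7-day organoids beyond the counting intervals. It was found in 33.9% of day 11 barcodes.

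**Figure D1:**
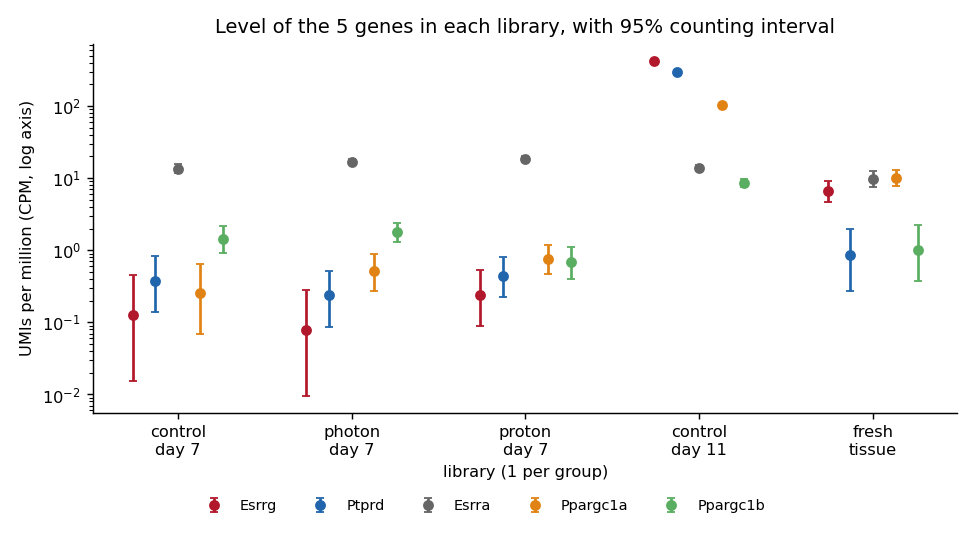
Level of each of the 5 genes (CPM, log axis) in the 5 libraries, points with 95% Poisson intervals. Esrrg, Ptprd and Ppargc1a stand at 418, 296 and 104.4 CPM in the day 11 library and below 1 CPM in the 7-day organoids, whereas Esrra keeps to 9.87 to 18.3 CPM in all 5.

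Against control day 7, the day 11 library was higher by a log2 ratio of 8.54 for Esrrg (8.17 to 8.69), 7.75 for Ptprd (7.35 to 8.03), 6.39 for Ppargc1a (6.00 to 6.63) and 1.95 for Ppargc1b (1.55 to 2.34), all on the scale of log2(CPM + 1), which understates the change of low genes. Esrra differed by 0.01 (-0.21 to 0.24). In barcodes with at least 2500 genes Ppargc1b fell under 2-fold, at 0.73 (-0.20 to 1.65). Thus 4 of the 5 genes were at least 2-fold higher with the limits used, a class that took 46% of the 13665 genes with at least 20 UMIs in the 2 libraries, and the median of all these genes was 0.90. With the members chosen on this contrast nothing is read from that count. Days of culture, animals, run and software all differ between these libraries and cannot be told apart. The ratio of Esrra was negative, at -0.80, when libraries were scaled by the median ratio of their genes instead of by total UMIs, and positive, at 0.39, when the total was taken over genes under 20 kb. These scalings moved the median of all genes to 0.24 and 1.31, so that Esrra was below that median under each of the 3, and in tissue the first of them moved it from -1.05 to -0.016.

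Position among genes of like span gave a second description of the contrast. The median log2 ratio climbed with gene span, from 0.35 in genes up to 10 kb through 0.71, 1.21 and 1.95 to 2.96 in the 352 genes over 300 kb, where 85.5% were at least 2-fold higher on day 11. In the photon against control comparison the same span classes had medians of 0.06 to 0.16. In fresh tissue against control they climbed from -1.16 to -0.20. The source of the trend was not tested. Esrrg and Ptprd were 1st and 2nd of the 352 longest genes and also 1st and 2nd of all 13665. Next among the long genes were Naaladl2, with 3474 UMIs on day 11 and 0 on day 7, and the cystine transporter Slc7a11, with 20821 and 117 UMIs. Ppargc1a was 2nd of 1535 genes of 100 to 300 kb and 14th of all genes, and Ppargc1b, at 766th of the same 1535, sat at the median of its class. Esrra was below the median of the genes of 10 to 30 kb, 0.71.

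**Figure D2:**
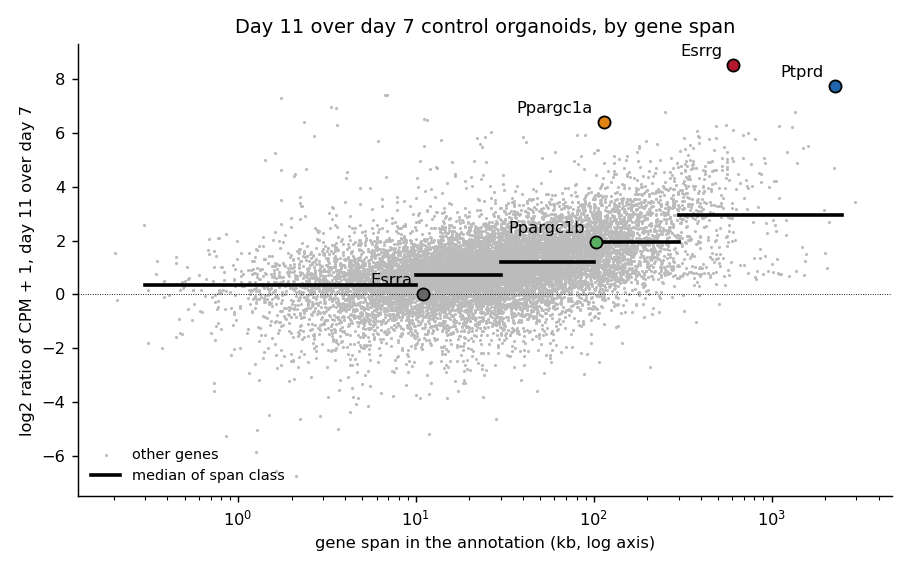
Log2 ratio of CPM + 1, day 11 over day 7 control organoids, against gene span (kb, log axis), 1 grey point per gene and black lines for the median of each span class. Class medians climb from 0.35 to 2.96, with Esrrg at 8.54, Ptprd at 7.75 and Ppargc1a at 6.39 above the rest of their classes but for 1 gene above Ppargc1a, and Ppargc1b at 1.95 on the line.

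The radiation groups addressed whether surviving organoid cells differed in these regulators. Esrra and Ppargc1b in both comparisons and Ppargc1a in proton had at least 20 UMIs in the pair of libraries, and none of these was 2-fold higher or lower than in control on the log2(CPM + 1) scale, where 0.657% of 11722 genes (photon) and 0.852% of 11619 genes (proton) were higher and 0.264% and 0.25% lower. Esrra was above control by 0.30 in photon (0.07 to 0.52) and by 0.41 in proton (0.19 to 0.64), against medians over all genes of 0.09 and 0.08. Its sign was the same in all 12 alternative treatments of each comparison, but the interval of the photon ratio reached below 0 with at least 500 genes (-0.017), at least 2500 genes (-0.39), at least 1% Malat1 (-0.035), thinning (-0.13) and median-of-ratios scaling (-0.018), and that of the proton ratio with at least 2500 genes (-0.036). Photon and proton differed for Esrra by 0.12 (-0.07 to 0.30).

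Ppargc1b, on few UMIs, lay on opposite sides of control in photon and proton. Its log2 ratio to control was 0.18 in photon (-0.29 to 0.64) and -0.54 in proton (-0.99 to -0.06), and proton over photon gave -0.72 (-1.10 to -0.30). These values rest on 17 to 45 UMIs per library, and when each barcode was thinned to 1000 UMIs the proton ratio turned to 0.45 on 6 UMIs against 1. The interval of the proton ratio to control also reached above 0 with at least 500 genes (0.095), at least 2500 genes (0.60), 200 to 2500 genes (0.11) and at least 1% Malat1 (0.19). In barcodes with at least 1% Malat1 the level of Ppargc1b was 2.96 CPM in control, 2.97 CPM in photon and 1.73 CPM in proton, and these barcodes held 20 of its 23 UMIs in control, 25 of 45 in photon and 14 of 17 in proton. Ppargc1a was above control by 0.27 in photon (-0.20 to 0.60) and 0.50 in proton (0.01 to 0.81), on 4 control UMIs that came from 2 barcodes. Added CPM damp such low levels, and with a pseudocount of 0.1 CPM the proton value was 1.30 (0.012 to 2.52), past 2-fold. At 1 CPM the interval of the proton ratio reached below 0 under several alternatives, as without the mitochondrial limit (-0.043). Ptprd differed by -0.16 (-0.54 to 0.24) and 0.07, and the 2 to 6 UMIs of Esrrg allow no statement about irradiation at this depth.

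Fresh tissue was compared with control organoids to place the levels beside those of the gland. Ppargc1a was higher in tissue by 3.16 (2.66 to 3.45) and Esrrg by 2.76 (2.26 to 2.97), while the median of 11414 genes was -1.05. A total of 9.97% of the genes were at least 2-fold higher, among them 2 of the 4 members with at least 20 UMIs in both libraries together. Esrra gave -0.42 (-0.82 to -0.03), yet 0.75 with scaling by the median ratio and 0.28 in barcodes with at least 1% Malat1. Ppargc1b (-0.28, -0.95 to 0.49) did not differ from control beyond counting error, nor did Ptprd (0.42, -0.27 to 1.07), on 5 and 6 UMIs. Without the mitochondrial limit both were above control, Ptprd at 2.24 (1.71 to 2.62) and Ppargc1b at 0.79 (0.20 to 1.35), and median-of-ratios scaling put Ptprd at 1.13 (0.14 to 1.92).

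Tissue barcodes can carry free RNA, which was not measured, and the shares were set beside those of barcodes with at least 3 immune UMIs. These barcodes were not shown to be immune cells or to lack the genes. Esrrg was present in 1.47% of 272 such barcodes (0.40 to 3.72%) and in 2.92% of the other 1130 (2.02 to 4.08%), with median depths of 2675 and 2326 UMIs. Ppargc1a was present in 1.10% (0.23 to 3.19%) and 3.19% (2.24 to 4.38%). For both genes the intervals overlapped, with only 4 (Esrrg) and 3 (Ppargc1a) of the 272 barcodes holding a UMI. Counts this small cannot decide whether the shares differ from background. The 37 barcodes with Esrrg had a median of 3206 UMIs against 2376 in the rest, and the 39 with Ppargc1a a median of 5130, so that depth moved with detection. Krt8, a luminal keratin, and Epcam led the genes higher in barcodes with Esrrg, at 162 against 51.1 CPM and 290 against 133 CPM. Car6, Krt18, Prol1 and Klk1b9 were among the next. Pro-acinar markers were higher there, at 50006 against 41410 CPM, as were luminal duct markers, while most other marker lists were lower. Striated and granular duct markers were among the lower lists, at 3548 against 8760 CPM, although Klk1b9 is one of them. Barcodes with Ppargc1a held 8.48-fold more Smgc, a submandibular secretory gene (50 CPM added to both values), followed by Slc12a2, mt-Nd4l and the nuclear RNA Malat1, at 10826 against 3778 CPM, with Pabpc1 and Atp1b1 among the next. Their median Malat1 share was 0.497% against 0.0181%. Striated and granular duct markers were higher in barcodes with Ppargc1a, at 13453 against 7798 CPM, as were pro-acinar markers, at 76549 against 40161 CPM. Immune, endothelial, cycling and myoepithelial markers were lower there.

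The limit on mitochondrial UMIs left out 532 tissue barcodes, and these held more UMIs of Ppargc1a than the kept ones. Ppargc1a gave 248 UMIs there, 104.5 CPM (91.9 to 118), in 16.5% of the barcodes. A single barcode held 76 of them, and without it, an alternative chosen after seeing the data, the level was 75.1 CPM. Esrrg was at 25.3 CPM, Ptprd at 18.1 CPM, Esrra at 21.5 CPM and Ppargc1b at 8.43 CPM, so that all 5 genes were above their levels in the kept barcodes. Median Malat1 was also higher, at 0.332 against 0.0234%, as was the sum of mitochondrially encoded genes, on which the barcodes were selected. The barcodes with under 200 genes had 0.70 to 6.92 CPM of each.

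Striated and granular duct markers, which include the kallikreins, moved with these levels. They summed to 33763 CPM in the 532 barcodes and 8149 CPM in the kept ones, and markers of ionocytes, the Ascl3 duct cells, to 270 against 57.5 CPM. Pro-acinar markers were lower, at 26495 against 42418 CPM, as were immune markers, at 289 against 1043 CPM. Within the 532, the 88 barcodes with Ppargc1a had striated and granular duct markers at 79776 CPM and the others 16716 CPM. Ptprd was at 46.8 against 7.51 CPM, Esrra at 40.5 against 14.4 CPM and Esrrg at 35.9 against 21.4 CPM in the same barcodes. Their median depth was 4304 against 2994 UMIs, and the part of depth and RNA quality in these values was not tested.

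**Figure D3:**
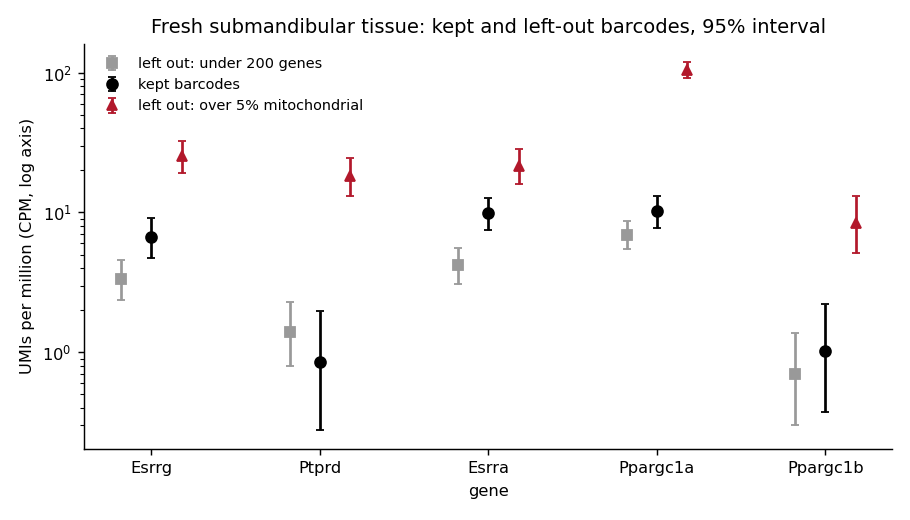
Level of each gene (CPM, log axis) in fresh tissue for barcodes with under 200 genes, kept barcodes and barcodes over 5% mitochondrial, with 95% Poisson intervals. The last class is highest for all 5 genes and reaches 104.5 CPM for Ppargc1a, against 10.2 CPM in the kept barcodes.

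Within day 11 the mitochondrial share also ordered the levels, but only of some genes. From barcodes with up to 1% mitochondrial UMIs through 4 further classes up to 5%, Esrrg was at 139, 301, 410, 492 and 625 CPM, and in the barcodes left out it reached 1089 CPM at 5 to 10% and 1492 CPM above. Ptprd went from 31.8 CPM in the lowest class to 568 CPM at 4 to 5% and 1218 CPM above 10%, and Ppargc1a from 8.68 to 234 and 408 CPM. Esrra ranged over 12.9 to 17.2 CPM in the 7 classes without an order. Ppargc1b was at 14.5 CPM (4.70 to 33.8) in the lowest class and at 7.51 to 9.11 CPM from 1 to 5%. In the barcodes left out it was at 14.9 CPM (10.7 to 20.2) and 17.9 CPM (11.8 to 26.0). Above the limit other properties moved too, with median UMIs of 876 and 848 against 2738 to 3294 below it, median Malat1 of 9.21 and 8.89% against 3.15 to 4.05%, and median long-intron shares of 24.5 and 23.3% against 8.21 to 13.1%. The share of barcodes with Esrrg went from 22.5 to 69.8% below the limit and was 56.5 and 59.7% above it. The part of depth and RNA quality in these levels was not tested.
The share of UMIs in genes with at least 100 kb of intron moved in the same direction. With the kept barcodes cut into 5 equal classes by that share, computed without the members, the lowest and highest class differed for Esrrg, Ptprd and Ppargc1a. Esrrg went from 227 to 633 CPM, Ptprd from 104 to 474 CPM and Ppargc1a from 30.4 to 180 CPM, but Esrra from 13.1 to 14.3 CPM. Ppargc1b, also a long gene, went from 5.93 CPM (4.27 to 8.01) to 8.35 CPM (6.24 to 11.0). It was at 11.3 CPM (8.79 to 14.2) in the class below the highest. How much intronic counting adds to these levels was not tested, as the files do not separate exonic from intronic UMIs.

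**Figure D4:**
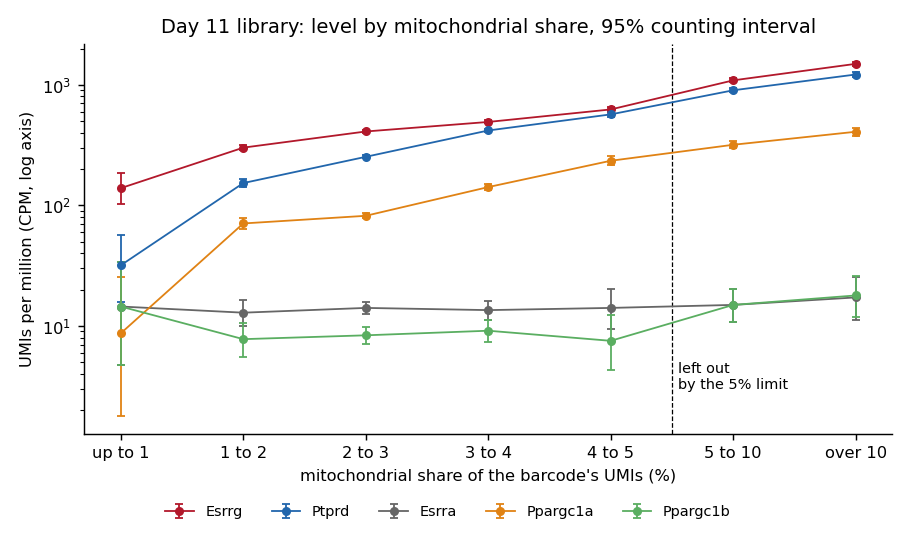
Level of each gene in the day 11 library (CPM, log axis) by the mitochondrial share of the barcode (%), with 95% Poisson intervals, the dashed line marking the 5% limit. Esrrg climbs from 139 to 1492 CPM and Ptprd from 31.8 to 1218 CPM, while Esrra stays between 12.9 and 17.2 CPM, and the 2 classes right of the line hold barcodes with medians of only 876 and 848 UMIs.

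UMIs of the 3 abundant genes were spread unevenly over day 11 barcodes. Esrrg had no UMI in 4129 barcodes, 1 in 2110, 2 to 4 in 2585 and at least 5 in 660, with a maximum of 27. Ptprd had at least 5 in 533 barcodes, which held 47.7% of its UMIs, with a maximum of 42, and Ppargc1a in 170 barcodes, with a maximum of 41. Esrra never exceeded 3 UMIs and Ppargc1b never 2. When 9334 barcodes were thinned to 1000 UMIs each and the 150 shallower ones left out, Esrrg was present in 29.9%, Ptprd in 18.4%, Ppargc1a in 7.32%, Esrra in 1.21% and Ppargc1b in 1.00%.

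Presence of one gene went with presence of another in part. Ptprd was found in 24.3% of barcodes with Esrrg (22.7 to 25.9%) and 15.8% of those without (15 to 16.7%). Ppargc1a was found in 14.5% of barcodes with Ptprd (12.8 to 16.2%) and 5.71% of those without (5.20 to 6.25%). Read the other way, Ptprd was in 36.3% of barcodes with Ppargc1a and 16.9% of those without. Esrrg was in 39.5% of barcodes with Ptprd and 27.7% of those without. Ppargc1a was in 8.28% of barcodes with Esrrg and 6.91% of those without, and these intervals (7.28 to 9.36% and 6.31 to 7.55%) overlapped. They parted with doublets kept (9.38 against 6.54%), at least 1% Malat1 (8.71 against 6.79%), thinning to 2000 UMIs (13.8 against 9.68%) and no mitochondrial limit (11.2 against 7.03%). Ptprd and Ppargc1a remained apart from the without value in each of the 5 classes of long-intron share, with 8.23 against 2.11% in the lowest and 17.6 against 9.26% in the highest. For Esrrg and Ptprd the intervals overlapped in the middle class (19.9 to 26.8% against 16.5 to 20.8%). Ppargc1a was in fewer barcodes with Esrrg than without in the class below the highest, at 7.70 against 11.1%, and in more in every other class. For Esrrg and Ppargc1a the intervals overlapped in each class, with 5.72 to 10.1% and 9.38 to 12.9% in the class below the highest.

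Clusters of the day 11 barcodes were made without the 5 genes. Of 9 clusters only 2 could be named from their markers. Cluster 4 was cycling-like, and cluster 6, with 877 barcodes or 9.25% of the total, was striated or granular duct-like from Klk1, Klk1b9, Fxyd2 and Gstt1, under a rule set after seeing the data. Its leading genes were Hp, Klk1b11, Ptprd, Cst6, Ppargc1a, Fxyd2, Sorbs2, Chchd10, Chrm3 and Adcy2, of which Chrm3, the muscarinic receptor, counts as a pro-acinar marker.

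Ptprd and Ppargc1a were concentrated in cluster 6 more than Esrrg among the kept barcodes. Without the mitochondrial limit this was lost, with 27.6, 33.6 and 25.9% of Ppargc1a UMIs in 3 unnamed clusters and the most Ptprd UMIs, 33.8%, in 1 of these. At resolution 0.4 no cluster was striated or granular duct-like, and an unnamed cluster of 22.5% of barcodes held 48.0% of Ptprd and 54.6% of Ppargc1a UMIs. Cluster 6 held 40.5% of Ptprd UMIs (1150 CPM), 38.7% of Ppargc1a UMIs (388 CPM) and 14.0% of Esrrg UMIs (563 CPM). Thinned to 1000 UMIs, Ptprd was present in 54.2% of cluster 6, 29.1% of cluster 5, 18.6% of cluster 1 and 4.10% of the cycling-like cluster. Ppargc1a followed with 22.7% in cluster 6, 9.52% in cluster 1 and 1.98% in the cycling-like cluster.
Esrrg was found in 38.1% of cluster 6, 36.7% of cluster 5, 34.5% of cluster 3, 34.2% of cluster 1, 23.0% of cluster 2 and 20.7% of the cycling-like cluster. Cluster 7, unnamed and of 265 barcodes, had 8.73% for Esrrg, 0.397% for Ptprd and no barcode with Ppargc1a. Cluster 9, unnamed and of 63 barcodes, had 4.76% for Esrrg (0.99 to 13.3%), 6.35% for Ptprd and 4.76% for Ppargc1a. The shares of Esrrg and Ptprd in clusters 1 to 6 were above those of cluster 7 at the same thinned depth, and how much of any share is free RNA was not tested. Cluster 8, unnamed and of 107 barcodes with a median of only 758 UMIs, was too shallow for the thinned comparison. By summed level it was above cluster 6 for Esrrg (768 CPM, 594 to 977) and below it for Ptprd (489 CPM, 352 to 660). For Ppargc1a it had 500 CPM on 43 UMIs, with an interval (362 to 674) that holds the 388 CPM of cluster 6.

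**Figure D5:**
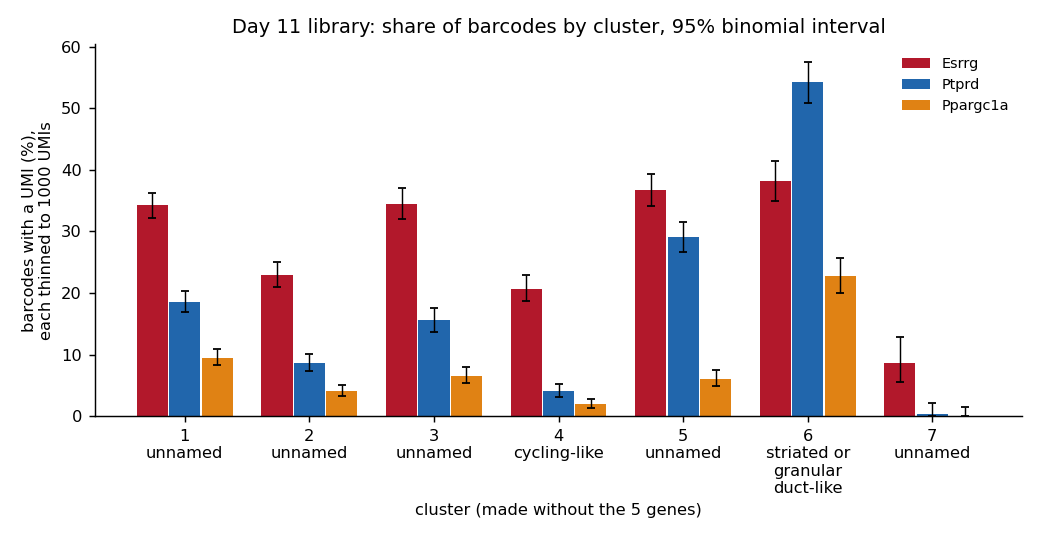
Share of day 11 barcodes with a UMI (%) of Esrrg, Ptprd and Ppargc1a in clusters 1 to 7, each barcode thinned to 1000 UMIs, bars with 95% binomial intervals. Ptprd runs from 0.397% in cluster 7 to 54.2% in cluster 6, whereas Esrrg lies between 20.7 and 38.1% in clusters 1 to 6.

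The joint presence of Esrrg and Ptprd was also read within clusters, with no test between them. In cluster 5 Ptprd was found in 35.6% of barcodes with Esrrg (31.4 to 39.9%) and 25.3% of those without (22.5 to 28.4%), but in cluster 1 in 20.5 and 17.6% and in cluster 3 in 16.2 and 15.2%, with overlapping intervals in both. In the cycling-like cluster the shares were 6.83% (4.22 to 10.3%) and 3.39% (2.41 to 4.63%). In cluster 6 the shares were 59.6% (54.1 to 64.9%) and 50.9% (46.6 to 55.2%), so that intervals parted in cluster 5 but overlapped in clusters 1 to 4 and 6. In cluster 6 Ppargc1a was present in 27.2% of barcodes with Ptprd and 17.5% of those without. With Esrrg it was in 19.5% (15.4 to 24.1%) and without Esrrg in 24.7% (21.1 to 28.6%), with overlapping intervals. For Ptprd and Ppargc1a the intervals parted in clusters 5 and 6 and overlapped in clusters 1 to 4.

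Duct ion transport genes, which set the sodium, potassium and chloride of saliva, were the list that separated cluster 6. They summed to 3201 CPM there and to 806 to 2376 CPM in the other clusters up to 7. Mitochondrially encoded genes summed to 31293 CPM, nuclear respiratory chain genes to 6806 CPM, fatty acid oxidation genes to 1407 CPM and citric acid cycle genes to 1294 CPM, each the top value of those 7 clusters but by smaller margins. The ERR and PGC-1 partners were not highest there, at 1456 CPM against 1767 CPM in cluster 1 and 1554 CPM in cluster 3, nor were the LAR family and Ptprd partners, at 1079 CPM against 1481 CPM in cluster 1. Esrra was at 19.2 CPM in cluster 6, where its 64 UMIs gave an interval of 14.8 to 24.6 CPM that reaches the value of cluster 5.

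The genes that went with each member were sought in 6195 genes by comparing thinned barcodes with and without it. At least 1.25-fold higher were 4.84% of genes with Esrrg, 13.1% with Ptprd and 15.5% with Ppargc1a, and at least 1.25-fold lower 2.71%, 7.41% and 10.7%. Of 8 duct ion transport genes measured, 7 were higher with Ptprd, including the epithelial sodium channel subunit Scnn1a (log2 0.84) and the sodium pump subunit Atp1b1 (0.68), the lowest being the cotransporter Slc12a2 at 0.19. With Ppargc1a 5 of the 8 were higher and with Esrrg 2. Fxyd2, the sodium pump modulator, was higher by 1.44 with Ptprd and 1.58 with Ppargc1a, and Chrm3 by 1.39 and 1.44.

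Most basal duct markers were lower with Ptprd and with Ppargc1a, and myoepithelial markers were lower with Ptprd and, in part, with Ppargc1a. With Ptprd 3 of 5 basal duct markers were lower, Krt14 by a log2 value of -0.89, and all 4 measured myoepithelial markers, with Lgals7 at -1.99. With Ppargc1a 4 of 5 basal duct markers were lower, Krt14 at -0.85, and 2 of 4 myoepithelial markers, Lgals7 at -2.67. With Esrrg 1 of the 5 was higher, Krt15 at 0.34, and none lower, and of the 4 myoepithelial markers 1 was lower, Lgals7 at -0.58. Of 7 luminal duct markers 4 were higher with Ptprd, 2 higher and 1 lower with Ppargc1a, and 0 higher and 1 lower with Esrrg.

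The oxidative lists, on which ERR and PGC-1 are known to act, gave counts near the 4.84% of all genes that were higher in barcodes with Esrrg. None of 11 ERR and PGC-1 partners, none of 17 citric acid cycle genes and none of 22 nuclear respiratory chain genes was 1.25-fold higher in barcodes with Esrrg, and of 13 fatty acid oxidation genes 1 was, Decr1 at 0.45. With Ptprd, where 13.1% of all genes were higher, the counts were 2 of 17 for the citric acid cycle and 0 of 22 and 0 of 13 for the other pair. With Ppargc1a, where 15.5% of all genes were higher and 10.7% lower, 4 of 11 partners were higher, Creb1 by 0.60, and 1 lower, Ppard at -0.39. Of 13 mitochondrial biogenesis genes 4 were higher with Ppargc1a and none lower, against 2 and 1 with Ptprd and none with Esrrg. In barcodes with Ppargc1a 4 citric acid cycle genes were higher and 3 lower. In the respiratory chain 1 gene was higher and 1 lower, and in fatty acid oxidation 3 of 13 were higher.

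By correlation of thinned log values over 9334 barcodes and 3495 genes, the genes most like Esrrg were Sprr1a (r = 0.12), Ly6d (0.11), Ptprd (0.11), Wfdc2, Tfcp2l1, Cyp2f2, mt-Co3, Slc25a21, Frmpd4 and mt-Co1. The lowest were S100a6 and the ribosomal protein genes Rps27a, Rps10, Rpl23 and Rps24. For Ptprd they were Lcn2 (0.18), Fxyd2 (0.18), Ppargc1a (0.17), Wfdc2, Atp1b1, Cyp2f2, Chrm3, Krt18, Deptor and Rbm47, with the basal keratin Krt14 (-0.22) lowest, and S100a6, Rps24 and Rps16 also among the lowest. Ppargc1a was most like Ptprd, Fxyd2, Chrm3, Atp1b1 and Deptor. These values are weak in sparse counts, the barcodes share 1 library, and they serve as a description of order only. Of the 50 genes most like Esrrg 56% had a span of over 100 kb, as had 48% for Ptprd and Ppargc1a, against 20.9% of all genes compared. With barcodes above the mitochondrial limit added, 3 of the first 10 for Esrrg and 2 for Ptprd were retained.

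Other genes of the pathway were followed in the day 11 against day 7 contrast, in which 46% of all genes were at least 2-fold higher and 4.76% lower. Of 20 ERR and PGC-1 partners tested 13 were higher and 0 lower, with a median of 1.11 against 0.90 for all genes, from Crtc2 at -0.67 to the thyroid hormone receptor Thrb at 3.51. The corepressors Nrip1 (2.24, in 70.5% of day 11 barcodes) and Ncor1 (1.03, in 57.1%) were found in more barcodes than Esrrg. Of 21 mitochondrial biogenesis genes 10 were higher, with a median of 0.97, from Polg2 (-0.66) to the import channel Timm23 (5.80), and Tomm20 (-0.19) was present in 67.5% of barcodes.

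The nuclear-encoded enzymes of oxidation had medians below the 0.90 of all genes. The citric acid cycle had 6 of 17 genes higher with a median of 0.45, from Fh1 (-1.0) to Suclg2 (1.5), and fatty acid oxidation 7 of 18 with a median of 0.84, from Acads (-0.60) to Cpt1a (2.93), the gatekeeper of mitochondrial fatty acid import. In the nuclear respiratory chain 1 of 21 was higher, with a median of -0.08, from Uqcrfs1 (-0.84) to Ndufs1 (1.60). Respiratory chain genes found in more day 11 barcodes than Esrrg were Ndufb5, Cox4i1, Cox5a, Cox6c, Cox7a2, Atp5a1, Atp5b, Atp5c1 and Atp5g1, with ratios of -0.71 in Atp5c1 and -0.47 in Atp5b. The 13 mitochondrially encoded genes had a median of 1.53, from mt-Nd1 (0.94) to mt-Nd4l (2.58), and 12 were higher.
Among LAR family phosphatases and Ptprd partners 9 of 15 were higher, with a median of 1.59, from the liprin Ppfia3 (-0.73) to the neurotrophin receptor Ntrk3 (5.05). Of 16 duct ion transport genes 12 were higher and 1 lower, with a median of 1.82, from the water channel Aqp5 (-1.15) to Atp1b1 (4.95). Atp1b1 was present in 71.1% of day 11 barcodes.

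In photon and proton against control 2 genes of these lists passed 2-fold, each in a list of 13 tested, beside 0.657% of all genes higher and 0.264% lower in photon and 0.852% and 0.25% in proton. Slitrk6, a Ptprd ligand family member, was higher in photon by 1.32, and Aqp5 was lower in both, at -1.61 and -1.80. In fresh tissue, where 51.8% of all genes were at least 2-fold lower than in control and 9.97% at least 2-fold higher, 8 of 13 mitochondrially encoded genes were higher, with a median of 1.40. Of 14 duct ion transport genes 6 were higher and 3 lower, from Slc4a4 at -2.91 to Slc12a2 at 4.71. ERR and PGC-1 partners had a median of -1.04 there, with 1 of 20 higher, Thrb at 2.52, and the nuclear respiratory chain a median of -1.30, with 0 of 21 higher.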

How the data were processed

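Mouse gene by barcode UMI counts were taken as the authors deposited them for each library, with file headers that name counting software 3.0.1 for the 7-day and tissue libraries and 7.0.0 for day 11. The submitters' processing notes name Cell Ranger 5 and mm10, the study's methods GRCm39, and whether intronic reads were counted is not given in the sources used here. Barcodes with at least 200 genes and at most 5% mitochondrial UMIs were kept, and the highest scrublet scores (Scanpy 1.11.5) were removed as doublets at 0.8% per 1000 barcodes. UMIs were summed per library, with exact Poisson intervals for CPM, Clopper-Pearson intervals for shares and conditional exact binomial intervals for ratios, at 95%, and log2(CPM + 1) ratios for genes with at least 20 UMIs in a pair of libraries. A gene was counted as higher or lower at 2-fold between libraries and at 1.25-fold between thinned barcodes, for genes with at least 200 UMIs. Day 11 barcodes were thinned to 1000 UMIs. Clusters came from 2000 variable genes without the members, 30 principal components, 15 neighbours and Leiden resolution 0.8 (leidenalg 0.10.2). The members and gene lists were chosen with earlier results of these data known. Named besides the members were the 10 most and 5 least similar genes for Esrrg and Ptprd and the 5 most similar for Ppargc1a. Esrra and Ppargc1b were detected in too few barcodes for this. From each list the highest and lowest ratio and genes with a higher day 11 share than Esrrg were named. Names were not cut to that rule where a cluster, a marker or a tissue barcode class is described, and those were chosen after their values were seen. A few genes that the rule would name are not reported here. Spans, overlaps and sequences come from the GENCODE annotation and genome of GRCm39, joined by Ensembl identifier, since the files give no coordinates. Alternatives were other mitochondrial, gene-number and doublet limits, other pseudocounts and scalings, barcodes with at least 1% Malat1 and other clusterings. Python 3.11.15, NumPy 2.4.6, SciPy 1.17.1, pandas 2.3.3 and matplotlib 3.10.9 were used, and the counting steps were tested on simulated data.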

Additional observations from a re-analysis of the deposited data

How the results depend on the processing

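No alternative gave the log2 ratio of Esrrg, Ptprd, Ppargc1a or Ppargc1b in day 11 over control day 7 another sign, and of 116 recomputed ratios of day 11 or tissue over control, 48 left the counting interval of the reported value. Without the mitochondrial limit, Esrrg was 8.83 and Ptprd 8.06 in day 11, and in tissue Esrrg was 3.53, Ptprd 2.24, Esrra -0.027, Ppargc1a 4.75 and Ppargc1b 0.79. With barcodes thinned to 1000 UMIs, Esrrg was 8.69 and Ppargc1b 2.98 in day 11 and Esrrg 3.27 in tissue, where control held 0 UMIs of Esrrg and 1 of Ppargc1b, so that these are no bounds. A pseudocount of 0.1 CPM gave Esrrg 10.85, Ptprd 9.27, Ppargc1a 8.21 and Ppargc1b 2.47 in day 11 and Esrrg 4.89 and Ppargc1a 4.87 in tissue, and 5 CPM gave 6.37, 5.81, 4.38 and 1.07, and 1.18 and 1.53. Median-of-ratios scaling gave Esrrg 7.64, Ptprd 6.86, Esrra -0.80, Ppargc1a 5.51 and Ppargc1b 1.18 in day 11 and Esrrg 3.89, Ptprd 1.13, Esrra 0.75 and Ppargc1a 4.33 in tissue. Totals over genes under 20 kb gave Esrrg 9.29, Ptprd 8.43, Esrra 0.39, Ppargc1a 7.10 and Ppargc1b 2.43 in day 11. In barcodes with at least 2500 genes, Ptprd was 8.18, Esrra -0.22, Ppargc1a 7.15 and Ppargc1b 0.73 in day 11, and Ppargc1a 3.60 and Ppargc1b -1.30 in tissue. In those with at least 1% Malat1, Ptprd was 8.03 and Ppargc1b 1.28 in day 11, and Esrrg 3.63, Esrra 0.28 and Ppargc1a 4.57 in tissue. With at least 500 genes Ppargc1a was 3.48 in tissue. The cause of these shifts was not tested.

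The share of Ptprd UMIs in the cluster richest in it was 40.5%, and 59.6% with the members kept in the clustering, 48.0% at resolution 0.4, 35.0% at 1.2 and 33.8% without the mitochondrial limit. At resolution 0.4 and without the limit that cluster was unnamed, and without the limit its level of Ptprd, 464 CPM, was below the 1005 and 599 CPM of other clusters, so that the concentration in a striated or granular duct-like cluster was lost there. With 1 library per group, animals, run and software version cannot be told apart from day 11, and the 2 to 23 UMIs of Esrrg, Ptprd, Ppargc1a and Ppargc1b in control limit every ratio to it. No paired analysis was possible because each group has 1 library.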
